A study of Rattus norvegicus with 10 samples.

Results

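Transcripts of 36 antioxidant and thiol redox genes were measured by mRNA sequencing in left hippocampi of transgenic rats that model Alzheimer's disease. The genes were chosen by name for their known function, with earlier results of these data known. Each was found by its symbol in the deposited table of read counts. All 36 were among the 13670 symbols there, and all 36 passed the filter on low counts that left 12000 genes to test. The study set 5 rats given BT-11, a small molecule taken by mouth that is known as a binder of LANCL2, against 5 untreated rats. The BT-11 group received the compound in its chow from 5 months of age for 6 months, and the untreated group ate plain rodent chow. Every rat was a female of the TgF344-AD strain, perfused with buffered saline at 11 months. The transgenes of that strain are driven by the mouse prion promoter, in both groups alike. Neither the dose nor wild-type rats are part of the data analysed here, so no value shows what the transgenes themselves do.

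Cells meet hydrogen peroxide and other oxidants with enzymes that pass electrons from NADPH to thiols. Glutathione, a tripeptide made from cysteine, feeds the glutathione peroxidases and transferases, while thioredoxin feeds most peroxiredoxins and the methionine sulfoxide reductases. The transcription factor NRF2, product of Nfe2l2, is held down by KEAP1 and, once released, binds the antioxidant response element in front of many of these genes. In brain, astrocytes are known as the main site of NRF2 activity and of glutathione supply to neurons.

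The comparison asked whether any of these transcripts differed between BT-11 and untreated rats. None of the 36 passed edgeR's quasi-likelihood test at a Benjamini-Hochberg adjusted p of 0.05, where 0 of the 12000 genes tested (0.0%) passed as well, and the adjusted p of the members lay between 0.8 and 0.997. DESeq2 on the same counts called 8 of 10358 genes with an adjusted p (0.0772%), and 0 of them were members. At an unadjusted p under 0.05 edgeR counted 2 members, Qsox2, higher with BT-11, and Gstp1, lower, against 5.96% of all genes tested (2.53% higher and 3.43% lower), so 2 of 36 is close to the background. Of the members 14 had a positive and 22 a negative log2 fold change, beside 5994 positive and 6006 negative over all genes tested. Their median log2 fold change was -0.02, beside -0.000157 over all genes tested. For 35 of the 36 the whole 95% interval of the log2 fold change lay between -0.5 and 0.5, that is, within a 1.41-fold difference either way, and Gstp1 was the exception. Half-widths of these intervals ran from 0.11 for Gclc to 0.367 for Gsta4 on the log2 scale.

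**Figure D1:**
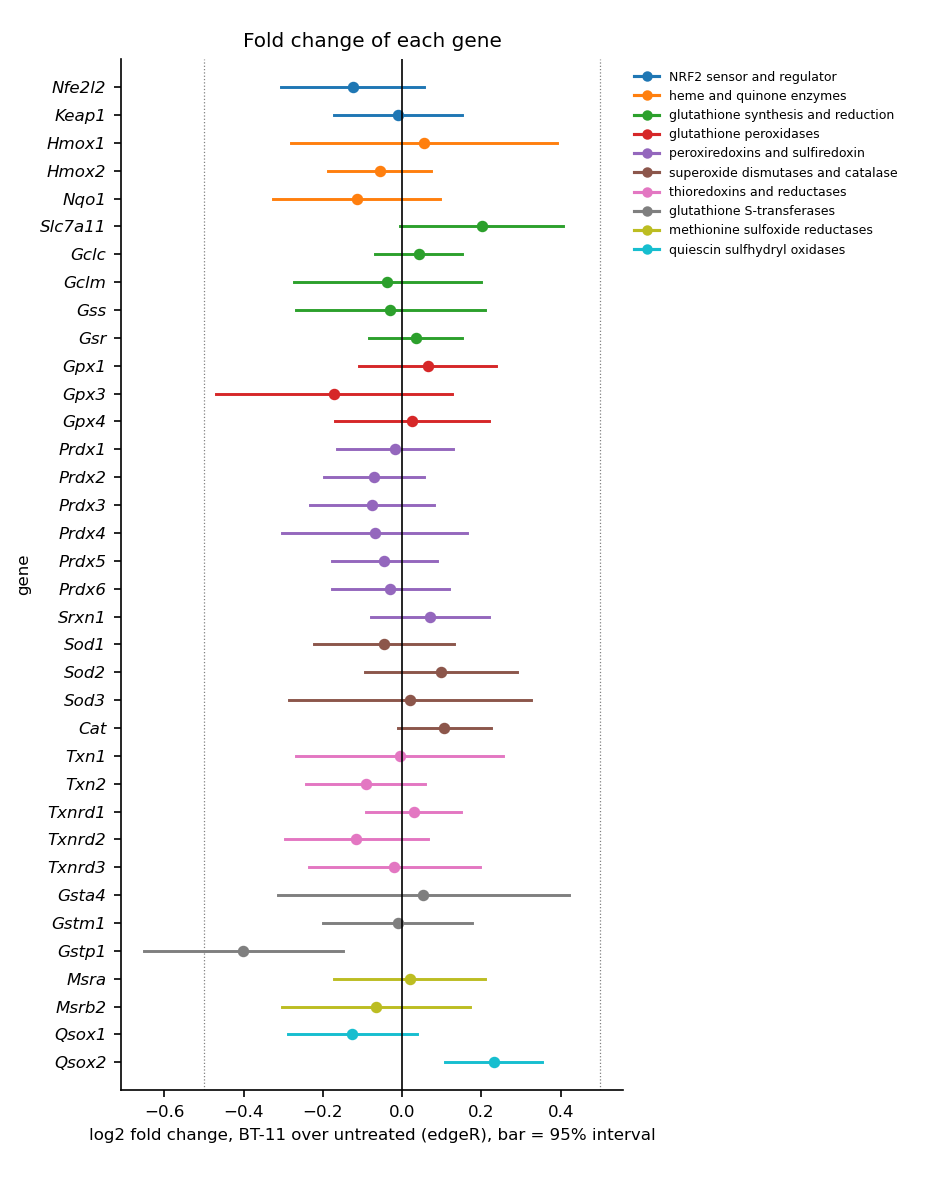
Log2 fold change of BT-11 over untreated rats for each of the 36 genes, by role (points, edgeR estimates; bars, 95% intervals; dotted lines at -0.5 and 0.5; 5 rats per group). Gstp1 and Qsox2 are the 2 genes whose bars leave 0 out, and the Gstp1 bar alone crosses a dotted line.

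The libraries held 13721673 to 19700443 counts each, and a member had between 76 and 3422 counts in a library. Values are CPM, each count relative to the library's total after TMM scaling, listed for replicates 1 to 5 of each group. Within a group the members varied by a median of 7.78% with BT-11 and 8.83% without it (coefficient of variation over 5 rats), beside 10.2% and 11.8% over all genes tested. All 8 neuron markers, all 8 astrocyte markers and all 8 markers of hippocampal pyramidal and granule cells were present. At an unadjusted p under 0.05 in edgeR's test, 4 of the 8 neuron markers were higher with BT-11 (median log2 fold change of the 8, 0.23), 10 of 10 myelin markers and 2 of 5 thalamus markers were lower, and 0 of 6 striatum markers passed, though all 6 had negative log2 fold changes. None of these markers had an adjusted p under 0.8. Transcripts of the choroid plexus, a neighbouring secretory tissue, were high in BT-11 library 3 and untreated library 4 (marker level 5.84 and 6.06, against 0.505 to 1.86 in the other BT-11 and 1.82 to 2.77 in the other untreated libraries, as mean log2(CPM + 1)). Red cell markers were uneven too, at 5.62 to 230.0 CPM in sum with BT-11 and 5.40 to 12.1 CPM without it. The 2 of them that were tested had log2 fold changes of 2.81 and 2.95, each with an unadjusted p under 0.05 and an adjusted p of 0.8 in edgeR's test. At that unadjusted p 1 of 8 pyramidal and granule cell markers and 1 of 8 astrocyte markers were higher with BT-11. Of 8 markers of leptomeninges and fibroblasts 1 was lower.

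**Figure D2:**
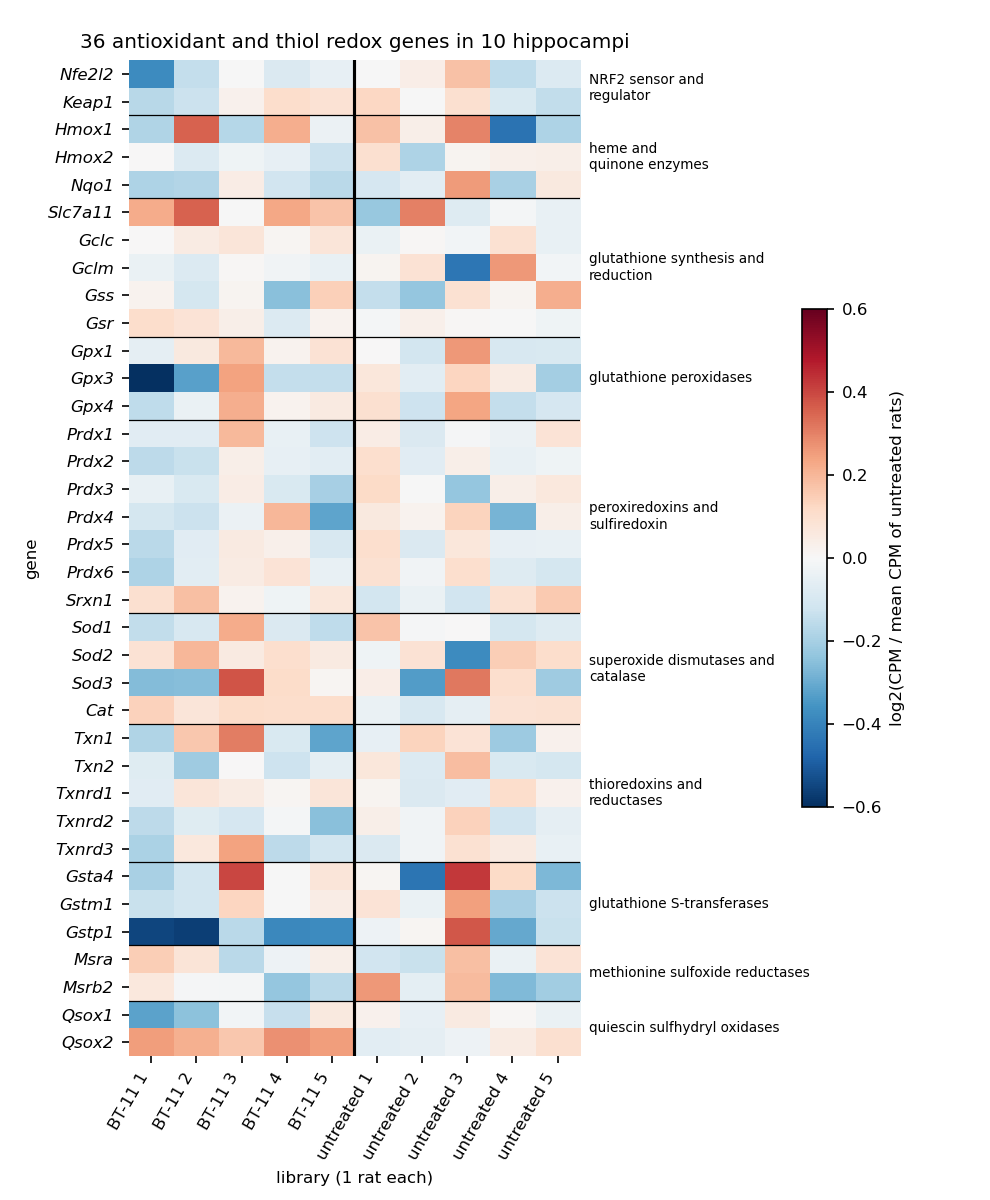
CPM of each gene in each library relative to the mean of the untreated rats (log2 colour scale, clipped at -0.6 and 0.6), with 5 BT-11 libraries left of the line and 5 untreated libraries right of it. Qsox2 is higher than that mean in all 5 BT-11 libraries and Gstp1 lower in all 5, and libraries BT-11 3 and untreated 3 hold many of the reddest cells.

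The glutathione S-transferases, which join glutathione to electrophiles, included the member with the largest difference. Gstp1, the pi-class enzyme and in rodent brain a protein of oligodendrocytes, lies at chromosome 1, 219291679 to 219294148 in rn6 on the minus strand. It measured 63.5, 62.8, 83.0, 71.2 and 71.6 CPM in the BT-11 rats and 91.1, 93.7, 120.3, 75.1 and 84.9 CPM in the untreated rats. The groups overlapped only through BT-11 library 3, which was above untreated library 4, and every BT-11 library was below the untreated mean. Means were 70.4 ± 8.18 CPM with BT-11 and 93 ± 16.8 CPM without it (SD, n = 5 each), and the log2 fold change was -0.40 (95% interval -0.65 to -0.15), or 0.758-fold, with an adjusted p of 0.8 in edgeR's test. As tissue was sequenced in bulk, fewer cells of a type and less RNA per cell cannot be told apart here.

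Gstp1 followed the myelin markers from rat to rat. The level of 10 markers of myelinating oligodendrocytes, all 10 with lower fitted values with BT-11 (at an unadjusted p under 0.05, beside 3.43% of all genes tested that were lower at that p), was 7.93, 7.80, 8.37, 8.27 and 8.21 in the BT-11 rats and 8.40, 8.54, 8.92, 8.36 and 8.58 in the untreated rats, as mean log2(CPM + 1). Summed, these markers reached 6534 to 9606 CPM with BT-11 and 8867 to 16570.0 CPM without it, and none was at 0. This level differed by -0.45 between the groups (two-sided exact permutation test, p = 0.0159, adjusted over 11 marker lists 0.175). Across the 10 rats Gstp1 and the myelin level had a Pearson r of 0.94 (permutation p = 4e-05, adjusted p = 0.00576) and a Spearman rho of 0.95 (permutation p = 0.00013, adjusted p = 0.0187), with adjustment over 144 relations of 36 members to 4 marker lists. Pearson's r was 0.88 without the 2 rats farthest from the median, BT-11 2 and untreated 3, and 0.88 for deviations from the group means. Gstp1 also had an r of 0.68 with the endothelium level (permutation p = 0.0274, adjusted p = 0.163). Its r was 0.63 with the microglia level (permutation p = 0.0506, adjusted p = 0.193) and 0.14 with the astrocyte level (permutation p = 0.7, adjusted p = 0.788). For deviations from the group means these were 0.81, 0.77 and 0.49. The differences between these relations were not tested. Once the fit held a term for the myelin level, the log2 fold change of Gstp1 was -0.04 (95% interval -0.25 to 0.18), against -0.40 without it. Since that level itself differed between the groups, a share due to treatment and a share due to myelin cannot be told apart.

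**Figure D3:**
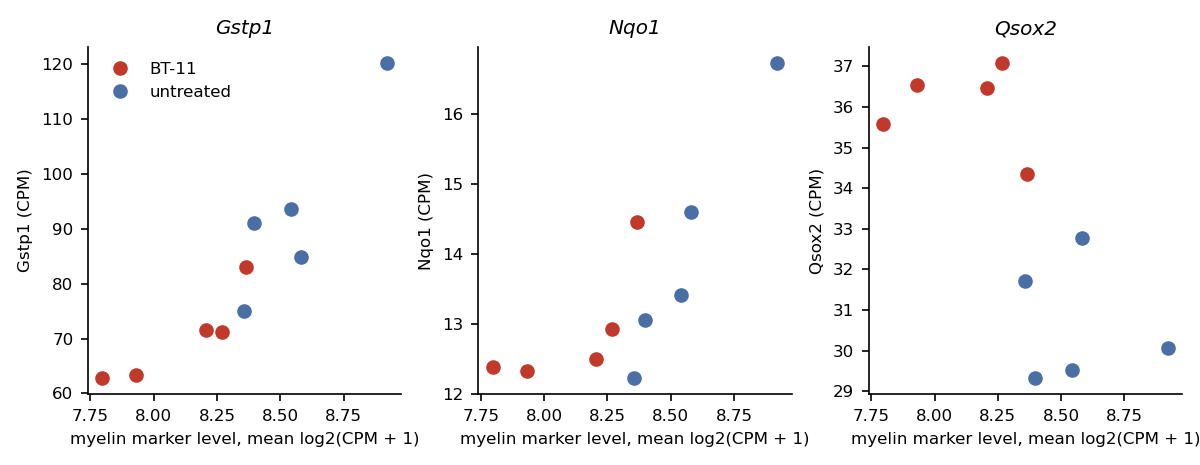
CPM of Gstp1, Nqo1 and Qsox2 in each rat against the level of 10 myelin markers (mean log2(CPM + 1)); red, 5 BT-11 rats; blue, 5 untreated rats; vertical axes do not start at 0. Gstp1 climbs with the myelin level through both groups (r = 0.94), Nqo1 less tightly (r = 0.82), and Qsox2 separates by group.

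The other transferases did not share the Gstp1 difference in size. Gstm1, a mu-class enzyme abundant in astrocytes, measured 149, 152, 179, 163 and 169 CPM in the BT-11 rats and 173, 159, 194, 143 and 149.8 CPM in the untreated rats. Its groups overlapped almost completely, at a log2 fold change of -0.01 (95% interval -0.20 to 0.18). Gsta4, which removes the lipid peroxidation product 4-hydroxynonenal, was low in both groups, at 5.77 to 8.73 CPM with BT-11 and 4.88 to 8.87 CPM without it. The differences between these genes were not tested. Counts of Gstm1 were not whole in most libraries, and its gene family has near-identical copies, so its level is less certain.

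The quiescin sulfhydryl oxidases, which put disulfide bonds into secretory proteins and pass the electrons to oxygen as hydrogen peroxide, included the member with the smallest p-value. Qsox2 (chromosome 3, 3662324 to 3691973, minus strand, rn6) measured 36.5, 35.6, 34.4, 37.1 and 36.5 CPM in the BT-11 rats and 29.3, 29.5, 30.1, 31.7 and 32.8 CPM in the untreated rats. The groups did not overlap, which held for 1 of 36 members and for 0.842% of all genes tested. The log2 fold change of Qsox2 was 0.23 (95% interval 0.11 to 0.35), or 1.17-fold, with an adjusted p of 0.8 in edgeR's test and 0.151 in DESeq2. It was 0.22 (95% interval 0.04 to 0.40) in the fit with a term for the myelin level and 0.26 (0.11 to 0.42) without the 2 libraries rich in choroid plexus transcripts. The level of 8 neuron markers was 8.88 ± 0.113 with BT-11 and 8.72 ± 0.212 without it (mean log2(CPM + 1), SD, n = 5 each; two-sided exact permutation p = 0.159, adjusted over 11 marker lists 0.418), and its part in the Qsox2 difference was not tested. Qsox1, the better known paralog (chromosome 13, 73423396 to 73460891, rn6), measured 25.5, 26.8, 31.4, 28.9 and 33.0 CPM in the BT-11 rats and 32.4, 30.7, 33.0, 31.9 and 30.9 CPM in the untreated rats. Of the BT-11 rats 4 lay below the untreated mean of 31.8 CPM and BT-11 rat 5 was just above the untreated range, and the log2 fold change was -0.13 (95% interval -0.29 to 0.04). The Qsox1 counts were divided between 2 transcript rows. With the row of most counts alone its log2 fold change was -0.01 (95% interval -0.26 to 0.23), and in the fit with a term for the myelin level it was 0.0036.

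**Figure D4:**
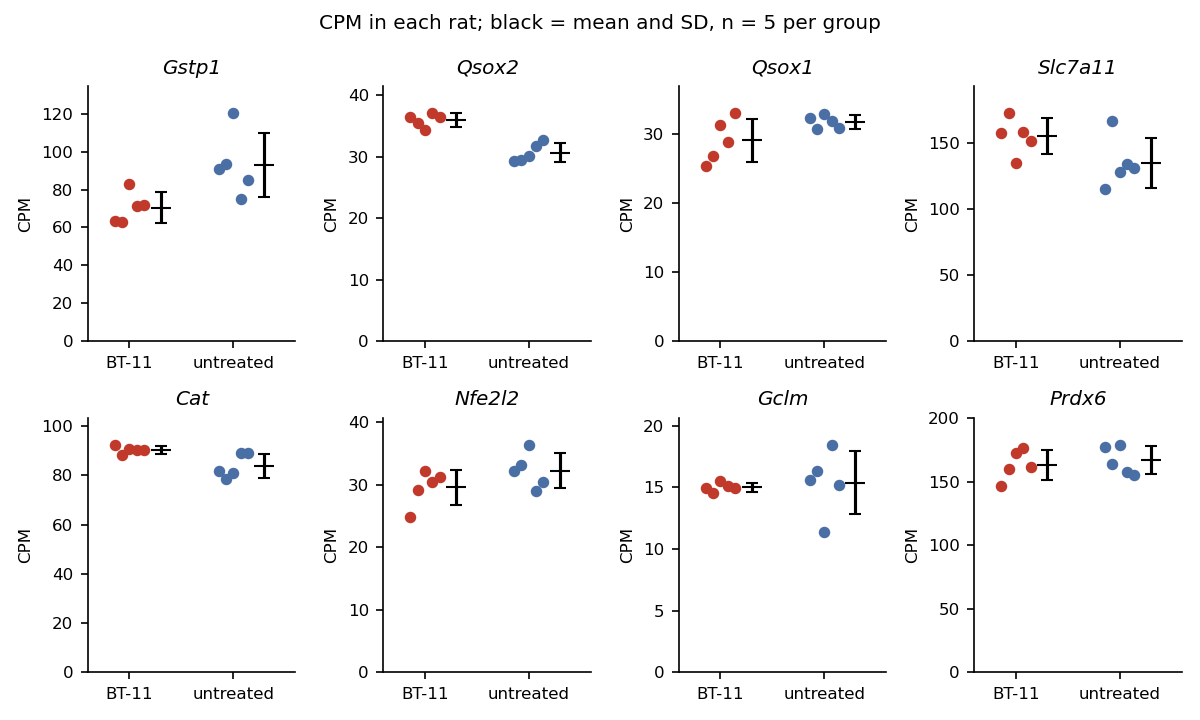
CPM of 8 members in each rat (points; red, BT-11; blue, untreated) with the mean and SD of 5 rats in black; every vertical axis starts at 0. Qsox2 is the gene shown whose groups do not overlap, and the spread of Gclm and of Cat among BT-11 rats is small.

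The promoters of both genes are shown because they are the members with the smallest p-values, and one of them carries the letters of the antioxidant response element. These sequences run from 250 bases before to 50 bases after the gene start, 5′ to 3′ along the gene, as RefSeq gives them for assembly GRCr8, a later build than the rn6 of the counts. Capitals mark a match to TGACNNNGC on either strand, the core of the element to which NRF2 binds.
Gstp1, GRCr8 chr1:210769656-210769955, - strand: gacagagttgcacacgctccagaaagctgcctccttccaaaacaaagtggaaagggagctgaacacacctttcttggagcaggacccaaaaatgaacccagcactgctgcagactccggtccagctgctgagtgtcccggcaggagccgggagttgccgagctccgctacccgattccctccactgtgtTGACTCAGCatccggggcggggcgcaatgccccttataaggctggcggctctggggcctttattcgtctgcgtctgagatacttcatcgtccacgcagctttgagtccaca
Qsox2, GRCr8 chr3:29462690-29462989, - strand: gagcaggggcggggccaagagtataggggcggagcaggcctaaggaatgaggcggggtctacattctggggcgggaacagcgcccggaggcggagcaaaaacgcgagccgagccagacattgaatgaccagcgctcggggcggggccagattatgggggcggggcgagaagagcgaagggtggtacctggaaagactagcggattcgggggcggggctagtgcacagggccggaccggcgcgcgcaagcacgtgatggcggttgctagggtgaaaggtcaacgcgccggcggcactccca
Gstp1 has 1 match, 61 bases before the start, and Qsox2 has 0 in this window. The Gstp1 match also holds TGACTCA, the letters of an AP-1 site, so these motifs overlap there. Of the 36 members 31 had 35 windows in the table, of which 10 (28.6%) held a match, against 12.1% of all 33469 windows.

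For comparison, these are the stretches around the match in Gclm, Prdx1 and Txnrd1, known as NRF2 targets, and in Sod2 and Nfe2l2 itself. They were picked from the members that held a match, which is in capitals, on the strand of the gene. That of Nfe2l2 lies 38 bases after the start, at the end of its window, and the other 4 lie before the start.
Gclm, GRCr8 chr2:213031947-213031987, + strand: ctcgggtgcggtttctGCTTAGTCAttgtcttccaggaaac
Prdx1, GRCr8 chr5:135383755-135383795, + strand: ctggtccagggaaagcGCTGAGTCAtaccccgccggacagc
Txnrd1, GRCr8 chr7:22755958-22755998, - strand: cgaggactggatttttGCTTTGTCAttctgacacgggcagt
Sod2, GRCr8 chr1:50050179-50050219, - strand: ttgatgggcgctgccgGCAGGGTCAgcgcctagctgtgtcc
Nfe2l2, GRCr8 chr3:81028950-81028977, - strand: tgctccgactagccatTGACGCCGCctc
A match is a run of letters, not a measured binding site. Nqo1, Gclc, Slc7a11 and Srxn1 had 0 matches in their windows, and Hmox1 had no window. Txnrd1 had its match in window 2 and 0 in window 1. The 10 members with a match, which also include Hmox2, Prdx4, Prdx5 and Msrb2, had log2 fold changes from -0.40 for Gstp1 to 0.10 for Sod2. Of these 10, 2 were positive and 8 negative, beside 14 positive and 22 negative over all 36 members. A difference between members with and without a match was not tested.

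The regulators themselves were close between groups. Nfe2l2, encoding NRF2, measured 24.9, 29.2, 32.2, 30.4 and 31.2 CPM in the BT-11 rats and 32.2, 33.2, 36.4, 29.1 and 30.5 CPM in the untreated rats. All 5 BT-11 rats lay below the untreated mean but 4 of them inside the untreated range, and the log2 fold change was -0.12 (95% interval -0.30 to 0.06). Its level went with that of 6 endothelial markers across the 10 rats (Pearson r = 0.85, permutation p = 0.00069, adjusted p = 0.0331; Spearman rho = 0.79, permutation p = 0.00882, adjusted p = 0.127), with r = 0.67 without BT-11 1 and untreated 3, and rho did not pass the adjustment. Nfe2l2 also had an r of 0.79 with the myelin level (permutation p = 0.0106, adjusted p = 0.102) and of 0.78 with the microglia level (permutation p = 0.00909, adjusted p = 0.101). With the astrocyte level its r was 0.49 (permutation p = 0.156, adjusted p = 0.336), and the differences between these relations were not tested. Keap1, the sensor that marks NRF2 for degradation, measured 71.1, 72.9, 81.2, 85.8 and 84.7 CPM in the BT-11 rats and 87.0, 79.5, 85.4, 75.0 and 71.9 CPM in the untreated rats, and its log2 fold change was -0.01 (95% interval -0.17 to 0.15). NRF2 is known to be set mainly through the stability of the protein, which these counts do not measure.

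Among the enzymes of heme and quinones, Hmox1 and Nqo1 are the transcripts most used as readouts of NRF2. Hmox1, inducible heme oxygenase, measured 7.96, 11.5, 8.01, 10.5 and 8.82 CPM in the BT-11 rats and 10.2, 9.24, 11.1, 6.63 and 7.94 CPM in the untreated rats. Each range covered most of the other, and the log2 fold change was 0.06 (95% interval -0.28 to 0.39). Nqo1, a quinone reductase, measured 12.3, 12.4, 14.4, 12.9 and 12.5 CPM in the BT-11 rats and 13.1, 13.4, 16.7, 12.2 and 14.6 CPM in the untreated rats, with a log2 fold change of -0.11 (95% interval -0.33 to 0.10). Untreated library 3, the rat with the highest myelin level, had the most Nqo1 of all 10. Nqo1 had an r of 0.82 with the myelin level (permutation p = 0.00247, adjusted p = 0.0711), and its log2 fold change was 0.12 in the fit with a term for that level. Hmox2, the constitutive heme oxygenase, lay between 96.7 and 106 CPM with BT-11 and between 93 and 113 CPM without it.

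Glutathione synthesis starts with cystine import and ends with the reductase that recycles the oxidised dimer. Slc7a11, the cystine and glutamate exchanger, measured 157, 172, 135, 158 and 152 CPM in the BT-11 rats and 115, 166, 128, 134 and 131 CPM in the untreated rats. Of the BT-11 rats 4 were above the untreated mean, while untreated rat 2 was higher than 4 of the 5 BT-11 rats, and the log2 fold change was 0.20 (95% interval -0.01 to 0.41). It was the member that came next by p-value after Qsox2 and Gstp1 (unadjusted p = 0.0557, adjusted p = 0.809 in edgeR's test). In the fit with a term for the myelin level its log2 fold change was 0.09 (95% interval -0.21 to 0.39). Gclc, the catalytic subunit of the rate-limiting ligase, measured 54.7, 56.5, 57.4, 55.0 and 57.5 CPM in the BT-11 rats and 53.1, 54.9, 53.9, 58.2 and 52.9 CPM in the untreated rats. This was one of the steadiest members, with a log2 fold change of 0.04 (95% interval -0.07 to 0.15). Gclm, the modifier subunit of the same ligase, measured 15.0, 14.5, 15.5, 15.2 and 14.9 CPM in the BT-11 rats and 15.6, 16.4, 11.4, 18.5 and 15.2 CPM in the untreated rats. Its BT-11 values kept within 14.5 and 15.5 CPM while untreated rat 3 was the lowest and untreated rat 4 the highest of all, at a log2 fold change of -0.04 (95% interval -0.27 to 0.20). Gss, which adds glycine in the last step, and Gsr, glutathione reductase, had log2 fold changes of -0.03 (95% interval -0.27 to 0.21) and 0.03 (95% interval -0.08 to 0.15).

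The glutathione peroxidases reduce peroxides with a selenocysteine at their centre. Gpx1, the cytosolic enzyme, measured 38.3, 41.4, 45.5, 40.4 and 42.2 CPM in the BT-11 rats and 39.8, 36.8, 47.7, 37.2 and 37.4 CPM in the untreated rats. Untreated rat 3 stood above all the others, and the log2 fold change was 0.06 (95% interval -0.11 to 0.24). Gpx4, which protects membranes against lipid peroxidation and ferroptosis, measured 155, 167, 200.0, 175 and 179 CPM in the BT-11 rats and 184, 158, 203, 156 and 161 CPM in the untreated rats, with BT-11 rat 3 and untreated rat 3 highest in their groups and a log2 fold change of 0.02 (95% interval -0.17 to 0.22). Its counts were divided among 3 transcript rows, of which the main one held 66.3% to 74.3% with BT-11 and 64.5% to 78.3% without it. Gpx3, the secreted plasma form, measured 10.3, 12.8, 19.0, 14.5 and 14.5 CPM in the BT-11 rats and 16.8, 15.3, 17.5, 16.6 and 13.9 CPM in the untreated rats. BT-11 rat 1 was lowest and BT-11 rat 3, rich in choroid plexus transcripts, was highest. Untreated rat 4, also rich in them, was not the highest of its group. The Gpx3 log2 fold change was -0.17 (95% interval -0.47 to 0.13) and was -0.29 (95% interval -0.55 to -0.04, unadjusted p = 0.0273) without BT-11 rat 3. Without BT-11 rat 1 it was -0.08 (95% interval -0.34 to 0.18), and in the fit with a term for the myelin level it was 0.09.

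In the fit with a term for the myelin level, several members took higher values. Of the 36, 26 then had a positive log2 fold change, beside 6208 of all 12000 genes, and 4 had an unadjusted p under 0.05, against 4.13% of all genes. All 4 were higher with BT-11, while of all 12000 genes 349 were higher and 147 lower at that p. The 4 members were Qsox2, Gpx1 at 0.24 (95% interval 0.03 to 0.45), Gpx4 at 0.23 (0.01 to 0.46) and Sod3 at 0.35 (0.01 to 0.68), and none had an adjusted p under 0.951. As each of the last 3 was near 0 without the covariate, their values rest on that adjustment.

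Most peroxiredoxins reduce peroxide through a cysteine that thioredoxin restores. In the group of peroxiredoxins and sulfiredoxin 6 of the 7 genes, all but Srxn1, had negative log2 fold changes, from -0.08 to -0.02. Prdx1, a cytosolic form, measured 56.4, 56.3, 67.6, 57.3 and 54.3 CPM in the BT-11 rats and 60.9, 55.6, 58.8, 57.7 and 62.5 CPM in the untreated rats. BT-11 rat 3 stood apart at the top, and the log2 fold change was -0.02 (95% interval -0.16 to 0.13). Prdx6, the form with a single catalytic cysteine, found in astrocytes, measured 147, 159.7, 172, 177 and 162 CPM in the BT-11 rats and 178, 164, 179, 158 and 155 CPM in the untreated rats, at a log2 fold change of -0.03 (95% interval -0.18 to 0.12). Its level went with the 6 endothelial markers across rats (Pearson r = 0.93, permutation p = 0.00015, adjusted p = 0.0108; Spearman rho = 0.93, permutation p = 0.00031, adjusted p = 0.0223), with r = 0.86 without BT-11 1 and untreated 3 and 0.93 for deviations from the group means. Prdx6 also had an r of 0.85 with the microglia level (permutation p = 0.00204, adjusted p = 0.0711) and of 0.48 with the astrocyte level (permutation p = 0.152, adjusted p = 0.331). The differences between these relations were not tested. Of all 144 relations 3 had an adjusted p of Pearson's r under 0.05, those named for Gstp1, Nfe2l2 and Prdx6. With the astrocyte level it was 0 of 36. Those endothelial markers did not pass between groups, with levels of 5.04 ± 0.229 with BT-11 and 5.12 ± 0.257 without it (mean log2(CPM + 1), SD, n = 5 each; two-sided exact permutation p = 0.611).

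The other peroxiredoxins were close in both groups. Prdx2, the abundant form of neurons, spanned 136 to 155 CPM with BT-11 and 144 to 162 CPM without it, and Prdx3, the mitochondrial form, spanned 48.6 to 57.6 CPM with BT-11 and 47.6 to 60.5 CPM without it. Prdx4 of the endoplasmic reticulum spanned 11.8 to 16.8 CPM with BT-11 and 12.1 to 16.1 CPM without it, and Prdx5, found in mitochondria and peroxisomes, spanned 84.3 to 98.0 CPM with BT-11 and 89.0 to 101 CPM without it. All 4 pairs of ranges overlapped. Srxn1, sulfiredoxin, which rescues overoxidised peroxiredoxins, measured 67, 71.1, 63.6, 61.6 and 65.8 CPM in the BT-11 rats and 58.0, 60.9, 57.8, 66.7 and 70.0 CPM in the untreated rats, with a log2 fold change of 0.07 (95% interval -0.08 to 0.22). The BT-11 values lay inside the untreated range but for BT-11 rat 2.

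Superoxide dismutases turn superoxide into peroxide, which catalase removes. Cat, catalase of peroxisomes, measured 92.4, 88.2, 90.6, 90.3 and 90.1 CPM in the BT-11 rats and 81.6, 78.5, 80.8, 89.1 and 89.2 CPM in the untreated rats. All 5 BT-11 rats were above the untreated mean of 83.8 CPM and kept within 88.2 and 92.4 CPM, but untreated rats 4 and 5 reached the same range. The log2 fold change was 0.11 (95% interval -0.01 to 0.22), with an unadjusted p of 0.0686 and an adjusted p of 0.809 in edgeR's test. Sod1, the cytosolic copper and zinc enzyme, measured 99.5, 103, 128, 104 and 99.2 CPM in the BT-11 rats and 124, 109.8, 110.2, 102 and 105 CPM in the untreated rats. BT-11 rat 3 was the highest and the log2 fold change was -0.05 (95% interval -0.22 to 0.13). Sod2, the mitochondrial manganese enzyme, measured 139.9, 151, 136, 141 and 136 CPM in the BT-11 rats and 129, 140.0, 101, 146 and 142 CPM in the untreated rats. Here untreated rat 3 was far below the others, and the log2 fold change was 0.10 (95% interval -0.09 to 0.29). Sod3, the secreted extracellular form, spanned 31.0 to 48.3 CPM with BT-11 and 29.5 to 46.4 CPM without it.

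The thioredoxin system passes electrons from NADPH through selenoprotein reductases to thioredoxin. Txn1, cytosolic thioredoxin, measured 12.6, 16, 17.7, 13.4 and 11.5 CPM in the BT-11 rats and 13.8, 15.7, 15.1, 12.3 and 14.5 CPM in the untreated rats. Its BT-11 values spread wider than and around the untreated ones, at a log2 fold change of -0.01 (95% interval -0.27 to 0.26). Txnrd1, its reductase, measured 87.4, 96.4, 94.8, 92.4 and 96.3 CPM in the BT-11 rats and 92.8, 86.2, 87.4, 98.5 and 93.2 CPM in the untreated rats, with a log2 fold change of 0.03 (95% interval -0.09 to 0.15). Counts of Txnrd1 were divided among 4 transcript rows, the largest of which held 47.2% to 58.9% with BT-11 and 47.1% to 60.4% without it. The mitochondrial pair, Txn2 and Txnrd2, had log2 fold changes of -0.09 (95% interval -0.24 to 0.06) and -0.12 (95% interval -0.30 to 0.07). For Txnrd2 all 5 BT-11 rats were below the untreated mean of 13.1 CPM. Txnrd3, a reductase best known from testis, had 2 rows with the same span and equal counts, summed here, and a log2 fold change of -0.02 (95% interval -0.23 to 0.20).

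Methionine sulfoxide reductases repair oxidised methionine, Msra the S form and Msrb2 the R form in mitochondria. Msra spanned 14.2 to 17.6 CPM with BT-11 and 14.4 to 17.9 CPM without it, and Msrb2 spanned 18.0 to 22.1 CPM with BT-11 and 17.6 to 25.3 CPM without it. Their log2 fold changes were 0.02 (95% interval -0.17 to 0.21) and -0.07 (95% interval -0.30 to 0.17), with overlapping groups for both.

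Levels of different genes can be set side by side per kilobase of transcript. By this measure Gpx4 stood first, at 216 ± 20.5 CPM per kilobase with BT-11 and 212 ± 26.4 without it (SD, n = 5 each), and Txnrd3 last, at 4.26 ± 0.554 with BT-11 and 4.32 ± 0.219 without it. Prdx6 followed at 191 ± 13.8 and 195 ± 12.9, within 1 SD of Gpx4 in the untreated rats. Prdx2, Sod1 and Gstm1 came next, between 154 and 167 CPM per kilobase with BT-11 and between 155 and 175 without it, and their SDs overlapped. Gstp1 stood above Prdx5 at 121 ± 21.9 in the untreated rats and below it with BT-11, at 91.6 ± 10.6 for Gstp1 and 112 ± 7.05 for Prdx5. In the untreated rats Prdx5, at 116 ± 6.51, lay within 1 SD of Gstp1. The readout genes Hmox1 and Nqo1 stood low, Hmox1 at 6.05 ± 1.03 with BT-11 and 5.83 ± 1.15 without it, and Nqo1 at 8.87 ± 0.609 and 9.62 ± 1.20. Transcript lengths are those of the deposited rows, and Txn1, given as 308 bases, was the shortest.

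**Figure D5:**
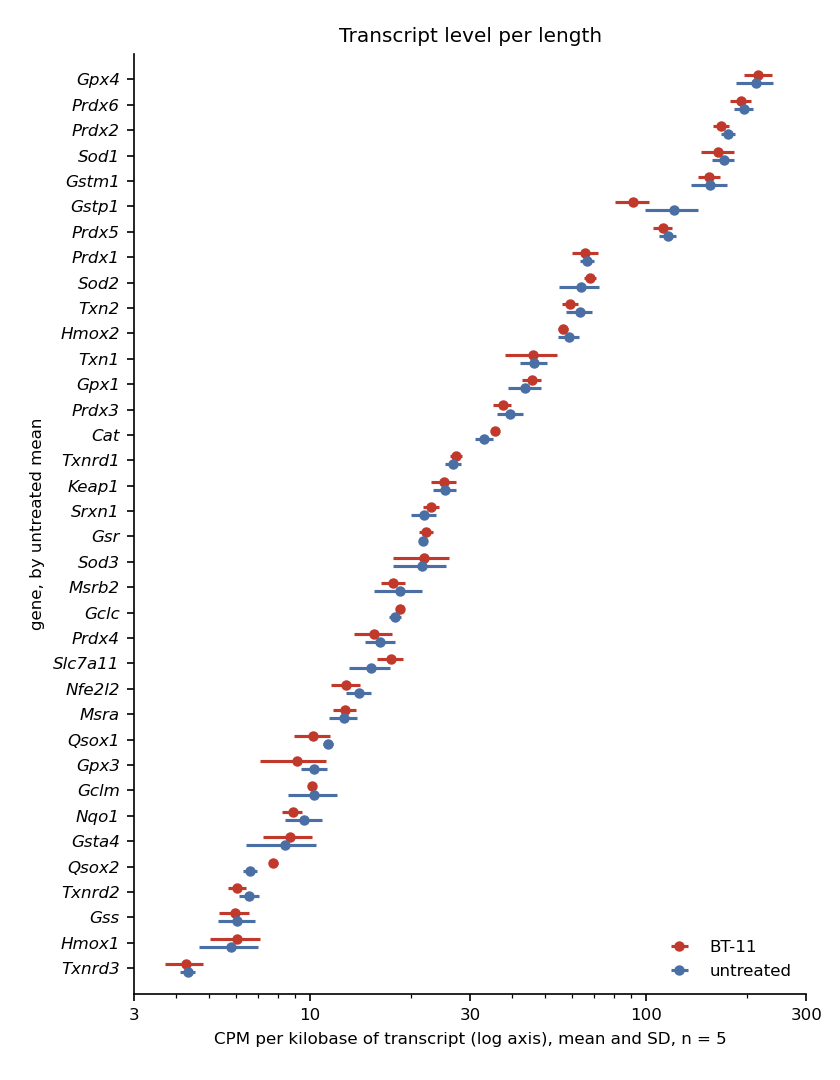
Level of each of the 36 genes per kilobase of transcript (CPM per kilobase, log axis; points, means of 5 rats; bars, SD), ordered by the untreated mean, with BT-11 in red above untreated in blue. Levels run from 4.32 for Txnrd3 to 212 for Gpx4 in untreated rats, and Gstp1 has the widest gap between groups.

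Some libraries were the highest or lowest of their group for a larger share of the members than of all genes tested. BT-11 library 3 was the highest BT-11 library for 18 of the 36 members, against 24.0% of all genes tested, and BT-11 library 1 the lowest for 17 (47.2%), against 25.4%. Untreated library 3 was the highest untreated library for 17 members (47.2%), against 31.6% of all genes tested. BT-11 library 3 was rich in choroid plexus transcripts and untreated library 3 had the highest myelin level. Untreated library 4, also rich in choroid plexus transcripts, was the highest untreated library for 4 members (11.1%), against 18.9% of all genes tested. It was the lowest for 11 (30.6%), against 21.8%. Untreated library 2 was the lowest untreated library for 12 members (33.3%), against 16.7% of all genes tested. That library was not rich in choroid plexus transcripts (level 1.98), and its myelin level of 8.54 was not the highest. The part of either level in these extremes was not tested. Without the 2 libraries rich in choroid plexus transcripts, 4 members had an unadjusted p under 0.05. Qsox2 and Slc7a11 were higher with BT-11, against 5.82% of all genes, and Gstp1 and Gpx3 lower, against 6.15%. The smallest adjusted p of a member was 0.216.

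The wider redox network gave a like picture. Of 80 other redox genes, 1 was not found in the table, 3 had low counts, 76 were tested and 0 passed, with a median log2 fold change of -0.01, 34 of them positive and 42 negative. At an unadjusted p under 0.05 there were 3, against 5.96% of all genes tested. Txnip, the inhibitor of thioredoxin, measured 37.1, 36.8, 66.0, 49.6 and 45.4 CPM in the BT-11 rats and 66.4, 76.6, 85.9, 55.8 and 59.0 CPM in the untreated rats. BT-11 rat 3 was the one BT-11 rat inside the untreated range, and the log2 fold change was -0.55 (95% interval -0.90 to -0.20) with an adjusted p of 0.8 in edgeR's test. In the fit with a term for the myelin level it was -0.06. Me1, malic enzyme, which makes NADPH, had a log2 fold change of 0.25 (95% interval 0.02 to 0.47), and Cbr1, a carbonyl reductase, had one of -0.18 (95% interval -0.35 to -0.0026). In the fit with a term for the myelin level these were 0.08 for Me1 and -0.05 for Cbr1.

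The groups of this wider list can be read by role. Among 9 partners of NRF2 and genes of its degradation 5 had positive and 4 negative log2 fold changes. Of 9 tested further NRF2 targets 2 were positive and 7 negative, from -0.18 to 0.08. In the NADPH group 2 of 8 were positive, and in the group of glutathione turnover and cysteine uptake 6 of 10. The other peroxidases and transferases had 5 of 13 positive, the other genes of the thioredoxin fold 4 of 9, the repair and selenoprotein genes 5 of 10, and the disulfide-forming enzymes 5 of 8. None of these 76 passed.

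Expression of the reported binding protein was also measured. Lancl2 had 56.4, 59.2, 54.5, 52.7 and 49.8 CPM in the BT-11 rats and 51.2, 50.7, 41.1, 55.2 and 57.5 CPM in the untreated rats, and untreated rat 3 was the lowest of all. Its log2 fold change was 0.09 (95% interval -0.09 to 0.28). The paralog Lancl1, a glutathione-binding protein of brain, had one of 0.04 (95% interval -0.13 to 0.21), and Lancl3, a low transcript, one of 0.04 (95% interval -0.64 to 0.72).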

How the data were processed

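Strand-specific libraries were prepared with a KAPA mRNA kit and read as 2 ends of 50 bases each (NovaSeq), per the labels' protocols. Treatment labels gave the groups. All labels say female, though the design text says male once. The submitters' processing notes name rn6, STAR 2.7.9a, bcl2fastq 2.19.1.403, DESeq2 and Partek. The sources used here name no counter or strand setting. Estimated counts (expected counts), not normalized, were deposited for 14806 transcript rows, and 85.4% of values were whole within 1e-06. A second deposited table holds a normalized signal, the same counts times 1 factor per library (0.822 to 1.15, largest relative deviation 9e-06). Start and end positions are as deposited, and whether starts count from 0 or 1 was not settled.

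Rows were summed by symbol (the 36 members had 44 rows) and rounded, filtered with filterByExpr (1670 symbols removed), and TMM factors were applied. Groups were compared with edgeR 4.0.16's quasi-likelihood test, two-sided, without covariates, with Benjamini-Hochberg adjustment over 12000 genes. The common biological coefficient of variation was 13%. Intervals of 95% come from the fold change, its F statistic and the test's degrees of freedom. DESeq2 1.42.0 and limma 3.58.1 were alternatives, as were upper-quartile scaling, library size only, 2 other filters, single transcript rows, the deposited normalized values, each library left out, the replicate number as a block, and myelin or choroid plexus levels as covariates. Correlations used 100000 permutations. R 4.3.3, Python 3.11.15 and matplotlib 3.10.9 were used, and the fit was tested on simulated data.

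Values of every library are given for members with an unadjusted p under 0.05 and for a fixed set of well-known ones, and other members by range or interval. Other redox genes are named where their unadjusted p is under 0.05. Members, lists and rules were chosen with earlier results of these data known. Each library is a separate rat. Promoter sequences are RefSeq's for GRCr8.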

Additional observations from a re-analysis of the deposited data

Results flagged for a closer look

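In 5 of 84 groups of 5 libraries, 1 library stood apart by Dixon's criterion, and chance alone gives about 1 in 20. BT-11 library 3, rich in choroid plexus transcripts, was high for Sod1 (128 CPM, others 99.2 to 104 CPM), Prdx1 (67.6 CPM, others 54.3 to 57.3 CPM) and Nqo1 (14.4 CPM, others 12.3 to 12.9 CPM). Untreated library 4, also rich in choroid plexus transcripts, had 102 CPM for Sod1 and 12.2 CPM for Nqo1, each the lowest of its group. It had 57.7 CPM for Prdx1, inside the range of the other untreated libraries. Untreated library 3, with the highest myelin level, was high for Gpx1 (47.7 CPM, others 36.8 to 39.8 CPM) and low for Lancl1 (62.5 CPM, others 75.9 to 80.5 CPM). The part of the choroid plexus or myelin level in these values was not tested.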

How the results depend on the processing

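No member passed an adjusted p of 0.05 under any of the 22 alternatives, and no gene of the table did except 8 with DESeq2. Of 42 genes named, 12 kept their sign under all 22, among them Gstp1 (lowest -0.531 without the 2 libraries rich in choroid plexus transcripts, highest -0.0372 with the myelin level) and Qsox2 (lowest 0.212, highest 0.262). The members' median log2 fold change was 0.0499 with the myelin level as a covariate, with 26 positive, and the cause was not tested. In that fit 4 members were higher and 0 lower at an unadjusted p under 0.05, beside 349 and 147 of all 12000 genes. That p was reached by 4 members and 7 other redox genes without the choroid plexus-rich libraries. Of all genes in that fit 5.82% were higher and 6.15% lower at that p. When 1 library was left out, 2 to 4 members reached it (4 without BT-11 replicate 3, by Slc7a11 and Gpx3). Leaving out 1 library gave 1 (without BT-11 replicate 2) to 5 (without untreated replicate 4) other redox genes. The share of all genes at that p was not counted for the fits with 1 library left out, so no background stands beside their counts. Log2 fold changes with the opposite sign, none of which passed either way, were as follows. With the myelin level these were Nfe2l2 0.0661, Keap1 0.121, Nqo1 0.118, Gss 0.0474, Gsr -0.00931, Gpx3 0.0862, Prdx1 0.0525, Prdx2 0.000867, Prdx4 0.0853, Prdx5 0.0368, Prdx6 0.0825, Srxn1 -0.0398, Sod1 0.0363, Sod2 -0.104, Txn1 0.096, Txn2 0.0437, Txnrd1 -0.00914, Txnrd3 0.0643, Gstm1 0.205, Qsox1 0.00361, Lancl1 -0.164, Lancl2 -0.106, Lancl3 -0.736. With the choroid plexus level they were Hmox1 -0.0285, Prdx1 0.00798, Txn1 0.0151, Txnrd3 0.025, Msra -0.00392. Without the choroid plexus-rich libraries they were Gclm 0.0251, Gpx4 -0.0584, Sod3 -0.0572, Gsta4 -0.0143. Lancl3 was -0.00593 on the deposited normalized values and -0.000911 with limma voom. Ranges over libraries left out that crossed 0 were Keap1 -0.0503 to 0.0219, Hmox1 -0.0374 to 0.135, Gclm -0.128 to 0.0317, Gss -0.0813 to 0.0287, Gpx4 -0.0228 to 0.0862, Prdx1 -0.0722 to 0.00709, Prdx6 -0.0634 to 0.00305, Sod3 -0.0816 to 0.105, Txn1 -0.0921 to 0.0622, Txnrd3 -0.0887 to 0.0164, Gsta4 -0.0447 to 0.174, Gstm1 -0.06 to 0.0532, Msra -0.0178 to 0.0649, Msrb2 -0.127 to 0.00745, Lancl1 -0.0246 to 0.061, Lancl3 -0.195 to 0.26.

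Replicate numbers did not pair the rats. The correlation of deviations from the group means between rats of the same number was over 0.1 in 1 of 5 pairs, and 0 of 10 libraries matched their own number best. With the number as a replicate block 0 members and 0 genes passed, and 3 members, Slc7a11 besides Gstp1 and Qsox2, had an unadjusted p under 0.05. The share of all genes at that p was not counted for the block fit. With 5 rats per group a member's 95% interval spanned at least 0.11 and at most 0.367 to either side on the log2 scale. Log2 fold changes of 0.23 for Qsox2 and -0.40 for Gstp1 had an adjusted p of 0.8 in edgeR's test. So 0.11 is not a limit of detection, and larger differences could also be missed.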
